A study of Schizosaccharomyces pombe with 8 samples.

Results

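The genes described are the coding rows that lie within 100 kb of either end of chromosome II of the fission yeast Schizosaccharomyces pombe. They were chosen by position and identifier: every gene row with a coding-type systematic identifier whose whole span falls in one of those windows was taken, and 5 identifiers were left out by name, 2 of them in the windows. The rule found 64 rows, 35 at the left end and 29 at the right end, among 5164 rows that pass the coding rule and 7022 gene rows in all. No expression value entered the rule, although earlier results of these data were known when the members were chosen. The reference annotation lists 55 of the 64 as protein-coding, 8 as pseudogenes and 1, prt2, as a long non-coding RNA, so the word coding holds for the identifiers and not for every row.

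The series measured poly-A RNA by stranded sequencing in 2 libraries of a wild-type strain (strain OHI246), of mating type h- with the alleles ade6-M210, leu1-32 and ura4-D18, and 2 libraries of cwf10-ΔNTE (strain OHI408), also h-, with ura4-D18, leu1-32 and the allele written ade6-M21X beside cwf10 2-127-delta. The mutant lacks residues 2 to 127 of Cwf10, the GTPase of the U5 small nuclear ribonucleoprotein of the spliceosome. Both strains were grown in yeast extract medium at 25 °C and share leu1-32, ura4-D18 and a mutant ade6, so that neither is prototrophic. The design text calls the libraries biological repeats, while the protocol says that repeats were grown together and kept apart from then on, so the p-values measure how far these libraries scatter, and that scatter may be technical only.

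Gene rows held 40857033 and 42802817 reads in the wild-type libraries, and in the mutant libraries 36186264 and 42593150. The labels were checked on cwf10 itself: reads that join the exons across its intron 1 numbered 98 and 85 in wild type and 0 in both mutant libraries, while those across its intron 3 numbered 82 and 98 against 84 and 99. Of the 6536 gene rows tested with edgeR's quasi-likelihood test, 78.1% passed a Benjamini-Hochberg adjusted p of 0.05, 39.6% higher and 38.5% lower in the mutant. Only 4.61% passed and also differed at least 2-fold. Mating-type markers differed in sum between the strains: 6 genes of M cells, the type that the h- label names, summed to 252.9 to 257.4 counts per 1000000 gene reads (CPM) in wild type against 137.3 to 140.6 CPM in the mutant strain, and 4 genes of P cells to 282.4 to 282.5 against 252.2 to 256.0. The members of these lists did not move together: mfm2 alone went from 101.4 to 12.3 CPM, while mam3 (log2 change 0.40) and map4 (0.69) were higher and mfm3 (0.04) did not pass in edgeR. In both strains the P-cell sum was above the M-cell sum, so these sums do not by themselves bear out the h- label. None of these 10 genes was at 0, and the part of mating type in the values below was not tested.

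Subtelomeres are the stretches next to the telomere repeats. In fission yeast they are packed in heterochromatin, which is marked by the methyltransferase Clr4, bound by Swi6 and set up through both RNA interference and the telomere-binding shelterin complex. They carry gene families for transport, sugar and nitrogen metabolism and cell-surface proteins, many of them in nearly identical copies at several chromosome ends, and the RecQ-type helicase genes tlh1 and tlh2 closest to the repeats. Many of these genes are known to be weakly expressed in rich medium and to be induced by starvation or by loss of heterochromatin.

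Sequence copies set what can be measured at these ends. Of the 64 rows, 31 have alignments of at least 95% identity elsewhere in the genome over at least 50% of their length, 15 at the left end and 16 at the right. The gene fex2 had no alignment of that identity, although only 25.4% of its 50-base windows occur once in the genome. It therefore counts below among rows without a near-identical copy. The copies include rows at the ends of chromosome I and other rows at the ends of chromosome II. The introns show how close they are, with capitals marking the first 6 bases and the last 3 bases, the 5′ and 3′ splice sites. The first sequence is the same in SPBC1348.01 at the left end and in SPBCPT2R1.01c and SPBCPT2R1.04c at the right end, and the second is the same in SPBC1348.07 at the left end and SPBPB2B2.14c at the right. All 4 libraries held 0 reads in these 5 genes and 0 reads across these introns. All sequences were read from the RefSeq genome ASM294v3 at the file's intron coordinates and are given 5′ to 3′ on the gene's strand.
SPBC1348.01 intron 1: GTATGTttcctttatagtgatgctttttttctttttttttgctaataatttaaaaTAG
SPBC1348.07 intron 1: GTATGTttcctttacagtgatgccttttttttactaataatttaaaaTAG

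A total of 26 rows, 14 at the left end and 12 at the right, had 0 reads in all 4 libraries. In 25 of these 26, under 50% of the 50-base windows of the row occur once in the genome, so that a read of that length could be placed elsewhere. The exception was SPBPB21E7.05, an uncharacterized gene 66.8 kb from the left end, of which 100% of windows are unique. How the authors placed reads that match several sites is not given in the sources used here, so a 0 in a copied row does not separate silence from unplaced reads. For a row with unique sequence, the 3 counts that a count of 0 allows correspond to 0.0701 to 0.0829 CPM, depending on the library, and cover counting error only. The rows listed at 0 at the left end begin with SPBC1348.15, 0.303 kb from the end, and include ftm5, ftm6, the dehydrogenase gene SPBC1348.09 and the phospholipase gene SPBC1348.10c. At the right end they include ftm7, the Vel1p-domain gene SPBPB2B2.15 and the transporter gene SPBPB2B2.16c.

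**Figure D1:**
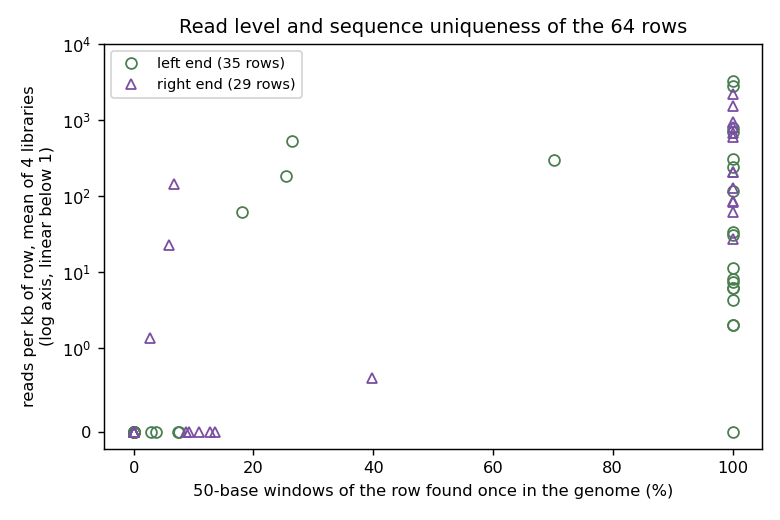
Share of 50-base windows of each row found once in the genome (x axis, percent) against the reads per kb of row averaged over the 4 libraries (y axis, log scale, linear below 1). Circles are the 35 rows of the left end and triangles the 29 rows of the right end. The rows at 0 lie at the left of the plot, except SPBPB21E7.05 at 100%.

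The plot of read level against uniqueness shows that most measurable members have fully unique sequence. Reads were found in 38 rows, of which 30 had 100% unique windows. Of these 38, 5 fell below the filter on low counts, with between 0 and 5 reads in each library. These were SPBPB21E7.02c, SPBPB21E7.10 and SPBPB21E7.06 at the left end and SPBPB2B2.07c and SPBCPT2R1.07c at the right. The pseudogene SPBCPT2R1.07c, 14.8 kb from the right end, had 0 and 0 reads in wild type against 4 and 5 in the mutant. The other 33 rows were tested, 18 at the left and 15 at the right.

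**Figure D2:**
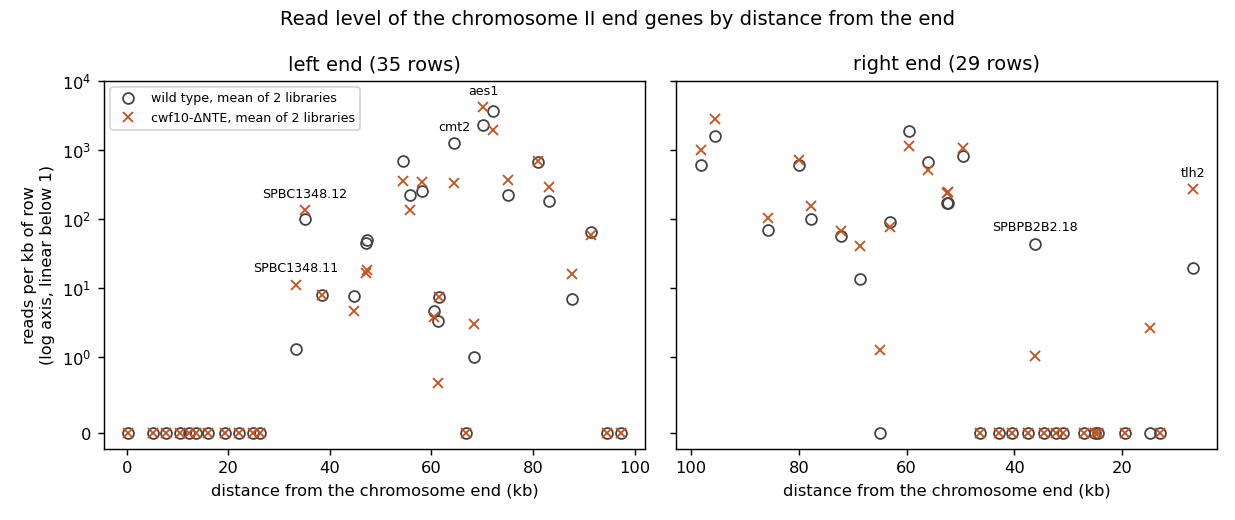
Reads per kb of row (y axis, log scale, linear below 1) against distance from the chromosome end in kb (x axis, reversed for the right end), with the wild-type mean of 2 libraries as circles and the cwf10-ΔNTE mean of 2 libraries as crosses. All 8 rows in the outer 20 kb of the left end are at 0. At the right end tlh2 stands alone with reads in both strains within 20 kb of the end.

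Rows at 0 were mostly those closest to the ends, as the plot of reads per kb by distance shows. At the left end all 8 rows within 20 kb of the end were at 0, and 3 of 6 between 20 and 40 kb. At the right end 2 of 4 rows within 20 kb and 7 of 8 between 20 and 40 kb were at 0. Every one of those right-end rows has a near-identical copy elsewhere. Per kb of row in wild type, the most abundant members were the pseudogene SPBPB21E7.08 with 3632 reads per kb, aes1 with 2280 and cmt2 with 1248 at the left end, and pan5 with 1863, prt2 with 1584 and gal1 with 820 at the right end.

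Of the 33 tested members, 17 were higher and 9 lower in the mutant, and 7 did not pass, so that 78.8% were called. That share is near the 78.1% of all tested rows, so the count of calls does not set these genes apart. The strains' libraries did not overlap on the CPM scale in 29 of the 33, beside 5798 of all 6536 tested rows. A lack of overlap therefore does not set a member apart either. At the left end 7 were higher, 6 lower and 5 did not pass. At the right end 10 were higher, 3 lower and 2 did not pass. The higher rows there include gal10 and tgd1, and the lower rows at the left end include fah1 and grt1. The rows of each of these overlapping pairs are not independent calls. The median log2 change was 0.23 over the tested members, 0.01 at the left end and 0.48 at the right end, against 0.01 over all tested gene rows. Changes of at least 2-fold that passed the test were made by 8 members, or 24.2% of those tested, beside 4.61% of all rows. Over all tested rows that pass the coding rule the share was 2.87%. Among rows with at least 10 reads in every library, a limit set after seeing the data, 5 of 28 members (17.9%) did so, beside 3.9% of 6461 rows in all and 10 of 31 (32.3%) at the ends of chromosome I. Some tested members entered through one strain or through few reads: SPBC1348.11, SPBPB8B6.02c, SPBPB21E7.11, SPBPB10D8.03 and SPBPB2B2.18 each had fewer than 10 reads in some library, and the counts given here describe tested members only. SPBC1348.11 and SPBPB10D8.03 passed the filter only through the mutant libraries, and SPBPB2B2.18 only through the wild-type libraries. They are among the 8 members above, and their calls are descriptions without a test. In these bulk samples, fewer cells that express a gene and less RNA per cell cannot be told apart. The table's reads are not separated by strand, and 15 of the 33 tested rows overlap another row. In the authors' deposited table, which used DESeq, 13 of the 33 were higher and 9 lower at an adjusted p of 0.05, and none was called in the opposite direction.

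**Figure D3:**
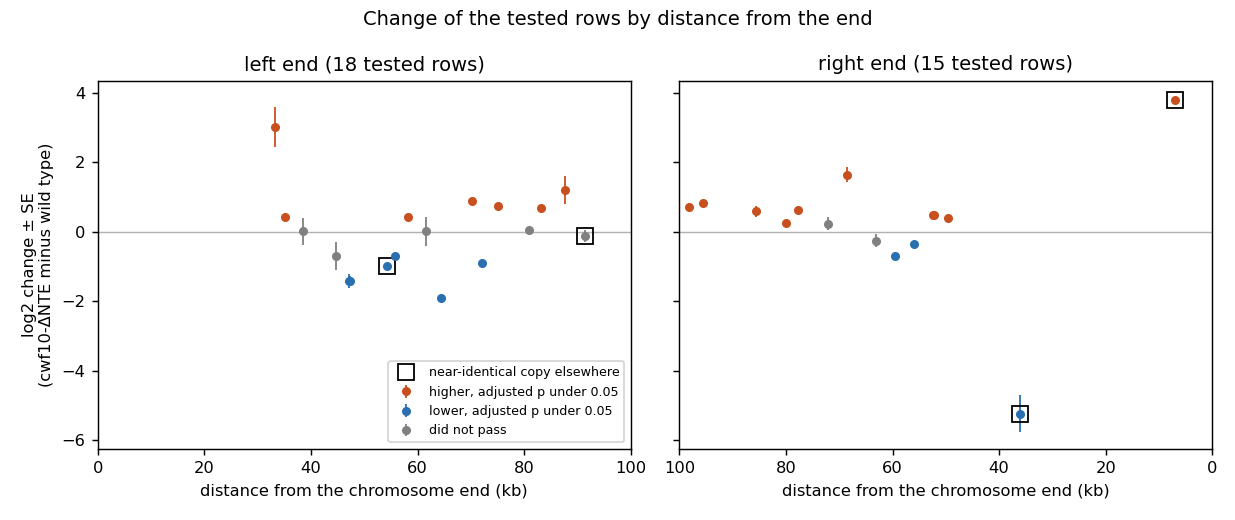
Log2 change, cwf10-ΔNTE minus wild type, with its standard error (y axis) for the 33 tested rows against distance from the end in kb (x axis, reversed for the right end). Colours show the direction of calls at an adjusted p of 0.05 and squares mark near-identical copies. The changes furthest from 0 are those of tlh2 (3.78) and SPBPB2B2.18 (-5.24) at the right end.

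The helicase gene tlh2 is the tested member nearest to an end, at 4526885 to 4532899 of chromosome II, 6.9 kb from the right end. It encodes a RecQ-type DNA helicase and is a standard reporter of subtelomeric silencing. It had 126 and 111 reads in the wild-type libraries against 1468 and 1766 in the mutant ones. Both mutant libraries lay far above both wild-type libraries, with no overlap. The level was 2.92 ± 0.33 CPM in wild type against 39.9 ± 0.63 CPM in the mutant strain (SD, n = 2), 13.7-fold higher. The log2 change was 3.78 ± 0.07 (SE), with an adjusted p of 4.3e-25 in edgeR's quasi-likelihood test. Only 6.75% of its 50-base windows are unique, and the row best matching it on chromosome I, tlh1, was listed at 0 in all 4 libraries with 0.891% unique windows, so the reads cannot be assigned to tlh2 alone. The next rows inward all have near-identical copies too: SPBCPT2R1.10 and SPBCPT2R1.06c were at 0 in every library, and SPBCPT2R1.07c between them had the 4 and 5 mutant reads given above and none in wild type.

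SPBPB2B2.18, an uncharacterized gene at 4502692 to 4503664, 36.1 kb from the right end, moved the other way. It had 41 and 44 reads in wild type against 0 and 2 in the mutant. The mutant level was 2.36% of that in wild type, with an exact 95% interval of 0.282 to 8.81% for counting error only. The row passed the filter on low counts only through the wild-type libraries. Its fitted log2 change, -5.24, is therefore a description without a test, and it became -4.43 without the first mutant library and -8.37 without the second. Its near-identical stretches lie at other chromosome ends and only 5.84% of its windows are unique. SPAC977.18, an uncharacterized gene at the left end of chromosome I, fell too, from 335 and 395 reads to 58 and 59. Its log2 change was -2.63 ± 0.13, with an adjusted p of 3.05e-16 in edgeR's quasi-likelihood test. Only 13.7% of the windows of SPAC977.18 are unique, and it overlaps the row of ftm2. Whether its reads are separate from those of SPBPB2B2.18 was not tested. The row that overlaps SPBPB2B2.18 on the opposite strand, SPBPB2B2.19c, was at 0 in all libraries.

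Between 47 and 57 kb from the left end, 4 tested members in a row were lower in the mutant. The transcription factor gene grt1, at 47369 to 51220, had 163 and 217 reads in wild type against 64 and 77 in the mutant. Its level was 4.66 ± 0.82 CPM against 1.74 ± 0.028 (SD, n = 2), a log2 change of -1.42 ± 0.15 with an adjusted p of 2.5e-09 in edgeR's quasi-likelihood test. The acetamidase gene fah1 overlaps it on the other strand and had 76 and 103 reads against 32 and 34, a log2 change of -1.43. These rows share sequence and their reads are not separated by strand, so they are not independent calls.

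The L-asparaginase gene SPBPB8B6.05c, at 54322 to 55582, encodes an enzyme that releases ammonium from asparagine. It had 868 and 899 reads in wild type against 404 and 482 in the mutant. Its level was 21.7 ± 0.014 CPM against 10.9 ± 0.11 (SD, n = 2), a log2 change of -0.99 ± 0.06 with an adjusted p of 4.8e-14 in edgeR's quasi-likelihood test. Its near-identical copy on chromosome I, SPAC977.12, had 1748 and 1763 reads against 812 and 984, a log2 change of -0.96, and only 26.4% of the windows of SPBPB8B6.05c are unique. The fluoride export channel gene fex2, next to it, had 327 and 285 reads against 183 and 188, a log2 change of -0.71. Its relative fex1 at the left end of chromosome I had 194 and 221 against 103 and 126, a log2 change of -0.85. Only 25.4% of the windows of fex2 and 18.4% of those of fex1 are unique. In both gene pairs, each library of the mutant was below each library of wild type, but the values within a pair may not be separate measurements. Just inward, the enolase gene eno102 was higher in the mutant, with 370 and 440 reads in wild type against 507 and 578 in the mutant, a log2 change of 0.43 ± 0.08.

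The members between 60 and 80 kb from the left end moved in both directions. The catechol O-methyltransferase gene cmt2, at 64487 to 65620, had 1398 and 1433 reads in wild type against 334 and 417 in the mutant. That is 34.8 ± 0.28 CPM against 9.25 ± 0.39 (SD, n = 2) and a log2 change of -1.91 ± 0.06, with an adjusted p of 7e-21 in edgeR's quasi-likelihood test. It was the lowest log2 change at the left end, and the row overlaps the non-coding row SPNCRNA.1304.

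Further from the end, aes1, at 70156 to 71310, was higher. The gene is annotated as a member of the phenazine biosynthesis family. It had 2601 and 2666 reads in wild type against 4443 and 5145 in the mutant, 64.7 ± 0.52 CPM against 118.5 ± 1.3 (SD, n = 2). The log2 change was 0.87 ± 0.03 with an adjusted p of 1.6e-20 in edgeR's quasi-likelihood test. The pseudogene SPBPB21E7.08, at 72081 to 73390 and so within 1 kb of aes1, was lower, with 4685 and 4831 reads against 2411 and 2660. Its log2 change was -0.90 ± 0.03, with an adjusted p of 4.5e-20 in the same test, and the row overlaps the non-coding row SPNCRNA.1305. The spread within each strain was small beside both differences. The libraries of the strains did not overlap for any of these 3 genes, as in 5798 of all 6536 tested rows.

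Further in, SPBPB21E7.09, another L-asparaginase gene, had 576 and 555 reads in wild type against 816 and 1043 in the mutant. Its log2 change was 0.72 ± 0.06, the opposite direction to its family member SPBPB8B6.05c. The arylsulfatase gene SPBPB10D8.02c had 465 and 418 reads against 626 and 791, a log2 change of 0.69 ± 0.07. The mutant libraries of both were above those of wild type. Its overlapping neighbour SPBPB10D8.01, a cysteine transporter gene, had 1685 and 1613 reads against 1562 and 1850, a log2 change of 0.06 that did not pass (adjusted p = 0.224, edgeR).

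The remaining left-end members had few reads. SPBC1348.11, a pseudogene 33.2 kb from the end, had 3 and 1 reads in wild type against 12 and 22 in the mutant. The mutant level was 854% of that in wild type, with an exact 95% interval of 304.6 to 3313% for counting error only. Its log2 change, 3.017, became 3.95 without the first wild-type library and 2.44 without the second. Its neighbour SPBC1348.12, a transcription factor gene at 35112 to 36589, had 154 and 142 reads against 176 and 218, a log2 change of 0.42 ± 0.12 with an adjusted p of 0.00218 in edgeR's quasi-likelihood test. In the authors' deposited table its log2 change was 0.27 with an adjusted p of 0.174. The hexose transporter gene ght7 had 10 and 18 reads against 12 and 16, and the urea transporter gene SPBPB8B6.02c had 20 and 13 against 11 and 9. Neither passed, nor did SPBPB21E7.11 and the transporter gene SPBPB10D8.04c. The pseudogene SPBPB10D8.03 had 13 and 5 reads against 20 and 21. Like SPBC1348.11, it passed the filter on low counts only through the mutant libraries. Its log2 change, 1.18, is therefore a description without a test, as is the 3.017 of SPBC1348.11. The call counted for SPBPB10D8.03 with edgeR was not made with DESeq2 (log2 change 1.19). Its log2 change was 0.63 without the second wild-type library and 1.11 without the first mutant library. Without the first wild-type library the log2 change was 2.04.

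At the right end, the 5 tested members furthest from the end were all higher in the mutant. They are ecl3, a short gene of a family that extends chronological lifespan when overexpressed, the cis-acting regulatory non-coding RNA prt2, the proteasome regulator gene fub2, the amino-acid permease gene nrg1 and the sterol deacetylase gene say1. The most abundant of them, prt2, at 4442574 to 4444191, had 2537 and 2589 reads in wild type against 4092 and 4962 in the mutant. Its level was 63.0 ± 0.70 CPM against 111.7 ± 2.4 (SD, n = 2), a log2 change of 0.83 ± 0.03 with an adjusted p of 1.1e-19 in edgeR's quasi-likelihood test. The row overlaps one of the rows left out by the rule. For ecl3 the reads were 162 and 166 against 273 and 259, a log2 change of 0.71 ± 0.11.

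The change of say1 was of similar size, 0.62 ± 0.11, from 174 and 159 reads to 237 and 271. That of nrg1 was smaller, 0.23 ± 0.04, from 1314 and 1367 reads to 1409 and 1731. For ecl3, say1 and nrg1 the strains did not overlap on the CPM scale. The authors' deposited table gave nrg1 a log2 change of 0.09 with an adjusted p of 0.222, and fub2 0.44 with 0.097. Closer to the end, the phosphatase gene SPBPB2B2.06c rose from 23 and 35 reads to 78 and 102, a log2 change of 1.64 ± 0.21 with an adjusted p of 8.4e-08 in edgeR's quasi-likelihood test. The glutamine amidotransferase family gene SPBPB2B2.05 and the uncharacterized gene SPBPB2B2.08 did not pass, with log2 changes of 0.23 and -0.27.

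Lower levels at the right end were found at pan5, gal7 and SPBPB2B2.18. The gene pan5 encodes 2-dehydropantoate 2-reductase, an enzyme of pantothenate (vitamin B5) synthesis, at 4478687 to 4480222. It had 2798 and 2924 reads in wild type against 1646 and 1855 in the mutant. This was 70.3 ± 0.40 CPM against 43.3 ± 1.3 (SD, n = 2), a log2 change of -0.70 ± 0.03 with an adjusted p of 2.6e-16 in edgeR's quasi-likelihood test.

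The galactose genes form a cluster of neighbouring rows between 49 and 58 kb from the right end. Galactokinase (gal1), the uridylyltransferase (gal7) and the epimerase (gal10) are the enzymes of the pathway by which galactose is turned into glucose phosphate. The cluster did not move as one: gal1 rose and gal7 fell, and the stretch that gal10 shares with tgd1 rose. For gal1, at 4488322 to 4490271, the reads were 1569 and 1629 in wild type against 1880 and 2269 in the mutant. Its level was 39.3 ± 0.043 CPM against 51.2 ± 0.93 (SD, n = 2), a log2 change of 0.38 ± 0.04 with an adjusted p of 5.4e-10 in edgeR's quasi-likelihood test. For gal7 the reads were 1004 and 1086 against 736 and 891, or 25.7 ± 0.77 CPM against 20.1 ± 0.41, a log2 change of -0.35 ± 0.05 with an adjusted p of 8.3e-07 in the same test. Neither gene's libraries overlapped between the strains on the CPM scale.

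The row gal10 had 600 and 627 reads in wild type against 730 and 989 in the mutant, a log2 change of 0.49 ± 0.07. The row tgd1, annotated as a nucleotide-sugar 4,6-dehydratase, spans nearly the same stretch on the other strand and had 610 and 624 against 726 and 994, a log2 change of 0.48 ± 0.07. The nearly equal counts of these overlapping rows are one observation, and which of the genes the reads came from cannot be told from this table. The row of gal7 also overlaps that of tgd1, by its end.

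**Figure D4:**
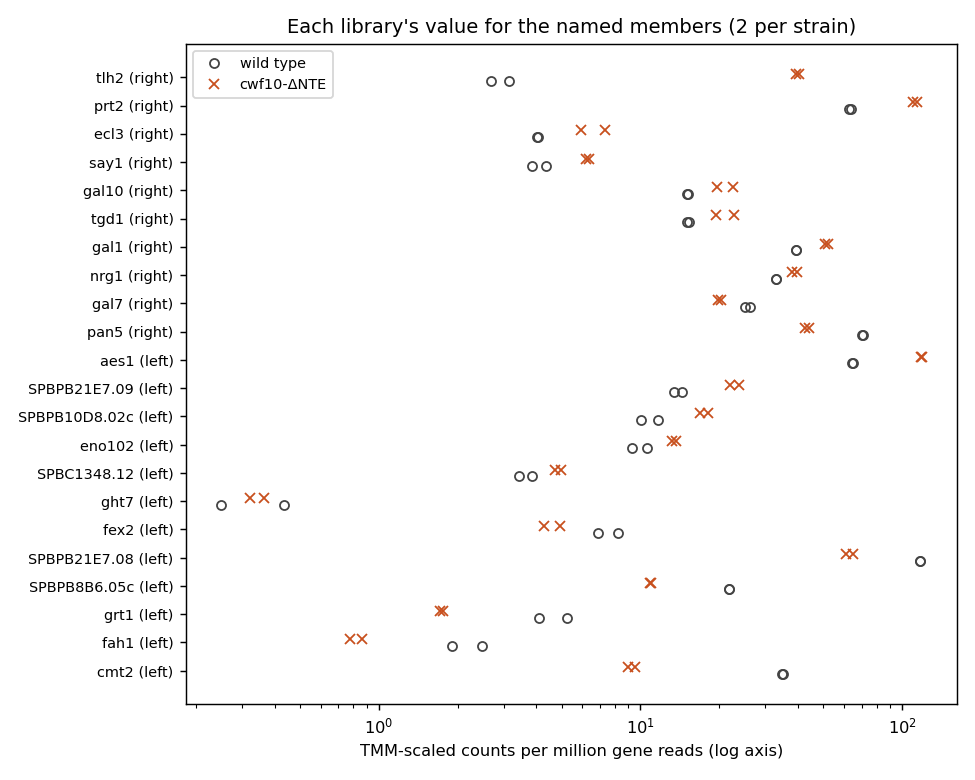
TMM-scaled CPM (x axis, log scale) of the named members in each library, with wild type as circles and cwf10-ΔNTE as crosses, 2 libraries per strain, and the end in brackets. Among these genes tlh2 shows the widest gap upward (13.7-fold) and cmt2 the widest gap downward, and ght7 shows strains that overlap.

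Counts by annotated role stand beside 39.6% higher and 38.5% lower over all tested rows. Over the tested rows that pass the coding rule these shares were 37.1% and 42.5%. The 17 enzymes outside the oxidoreductases included 14 tested rows, of which 9 were higher, 4 lower and 1 did not pass. The 9 include the overlapping rows gal10 and tgd1. Among 10 transporters 6 were tested, and 1 was higher (nrg1), 1 lower (fex2) and 4 did not pass. Both transcription factors were tested, SPBC1348.12 higher and grt1 lower. Of 22 rows of unknown function or yeast-specific families, 6 were tested, 2 higher, 2 lower and 2 that did not pass. Among these calls, SPBC1348.11, SPBPB10D8.03 and SPBPB2B2.18 passed the filter through 1 strain only. Of 2 oxidoreductases, pan5 was tested and was lower. Of 10 rows with other roles, 4 were tested and all 4 were higher: aes1, ecl3, prt2 and fub2. The only cell-surface row, the glycoprotein gene SPBC1348.08c, was at 0 throughout.

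The summed reads of the right end took a larger share of the library in both mutant libraries, and those of the left end overlapped between the strains. The 35 left-end rows held 0.0331 and 0.0322% of gene reads in the wild-type libraries against 0.0324 and 0.0321% in the mutant libraries, with overlapping strains (exact permutation test, two-sided, p = 0.667). The 29 right-end rows held 0.0273 and 0.0270% in wild type against 0.0373 and 0.0384% in the mutant, 1.39 times as much, with p = 0.333 in the same exact permutation test, the smallest that 2 libraries against 2 can give. The ratio of left-end to right-end reads was 1.21 and 1.19 in wild type against 0.869 and 0.834 in the mutant, also with an exact permutation p of 0.333. Reads in stretches shared by overlapping rows, such as gal10 and tgd1, enter these sums through both rows. Single genes carried much of these sums, and not the same ones in both strains. At the left end SPBPB21E7.08 held 34.7 and 35.1% of the end's reads in wild type but 20.6 and 19.5% in the mutant, and aes1 19.3 and 19.4% but 37.9 and 37.7%. At the right end pan5 held 25.1 and 25.3% in wild type but 12.2 and 11.3% in the mutant, and prt2 22.7 and 22.4% but 30.3 and 30.3%. The direction at the left end depends on which of these rows is left out. Without aes1, the left-end share was 0.0267 and 0.0259% in wild type against 0.0201 and 0.0200% in the mutant. Without SPBPB21E7.08, an alternative chosen after seeing the data, it was 0.0216 and 0.0209% against 0.0257 and 0.0258%. The right-end share was higher in the mutant either way, with 0.0211 and 0.0210% against 0.0260 and 0.0268% without prt2, and 0.0205 and 0.0202% against 0.0327 and 0.0341% without pan5. Reads of tlh2, not assignable to this end alone, were 126 and 111 of 11162 and 11565 right-end reads in wild type. In the mutant they were 1468 and 1766 of 13493 and 16365. Without near-identical copies, tlh2 among them, the right-end share was 0.0269 and 0.0267% against 0.0332 and 0.0343%, 1.26 times as much. A sum without both prt2 and tlh2 was not made.

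**Figure D5:**
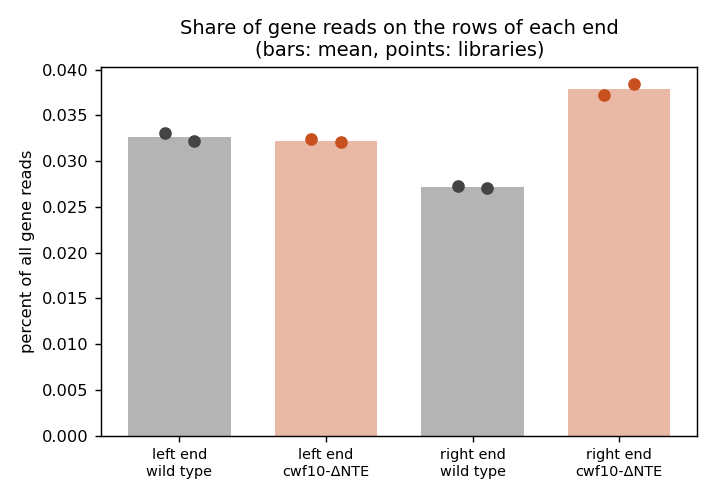
Percent of all gene reads (y axis, from 0) on the rows of the left end and of the right end in each strain. Bars are means and points the 2 libraries of each strain. The left-end shares overlap between the strains and the right-end shares lie higher in both mutant libraries (0.0373 and 0.0384%) than in both wild-type libraries (0.0273 and 0.0270%).

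Since the mutation lies in a splicing factor, the introns of the members were examined with the host gene's reads as offset. In this retention test 47.1% of 5038 introns of the whole table rose relative to their hosts in the mutant and 15 fell, with a median log2 change of 0.81. The members hold 25 annotated introns in 16 genes, and 6 of these are under 20 bases. Only 7 introns in 3 genes, SPBC1348.12, grt1 and SPBPB21E7.08, had enough reads to test. In simulated data over all 5038 introns, with the variation of the gene rows, the test recovered 48.5% of introns changed 2-fold. Recovery for these 7 introns was not measured, and their SE ran from 0.17 to 0.96. None of the 7 rose or fell (edgeR's quasi-likelihood test, 0 at an unadjusted p under 0.05, and 0 with DESeq2), with a median log2 change of 0.10. The 2 tested introns of SPBPB21E7.08 are 2 and 18 bases long. They had 1 read across their junctions in the second wild-type library and none elsewhere. The introns of SPBC1348.12 had no such read in any library. A loss of splicing could therefore hardly show in the introns of these genes. The tested intron of grt1 had a log2 change of 1.355 ± 0.96 (SE) from few reads. The test thus cannot tell whether splicing of the members changed.

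The 4 introns of SPBC1348.12 are printed because no read joined their exons in any library, while the introns themselves were covered. Capitals again mark the first 6 and the last 3 bases.
SPBC1348.12 intron 1: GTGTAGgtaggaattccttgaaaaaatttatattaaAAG
SPBC1348.12 intron 2: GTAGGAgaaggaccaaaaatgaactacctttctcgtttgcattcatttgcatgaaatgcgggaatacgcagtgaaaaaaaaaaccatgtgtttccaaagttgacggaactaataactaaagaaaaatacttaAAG
SPBC1348.12 intron 3: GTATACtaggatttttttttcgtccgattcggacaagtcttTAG
SPBC1348.12 intron 4: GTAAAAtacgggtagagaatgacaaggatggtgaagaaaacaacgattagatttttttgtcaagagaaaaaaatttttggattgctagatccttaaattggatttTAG

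The intron reads of SPBC1348.12 summed to 70 and 59 in wild type against 73 and 95 in the mutant. Per kb of intron that is 214.7 and 181 reads in wild type against 223.9 and 291.4 in the mutant, beside 104.2, 96.1, 119 and 147.5 per kb of the whole row in the same libraries. Reads over exon-intron boundaries numbered 55 and 40 in wild type against 52 and 74 in the mutant, and reads across the exon junctions were 0 in all 4 libraries. The log2 changes of the 4 introns relative to the host were 0.66, 0.08, -0.15 and -0.23, with adjusted p-values from 0.367 to 0.824 (edgeR). Among 3347 introns with at least 50 reads summed over the libraries, 108 (3.23%) had no read across the junction. The letters CTAAC, the core of the fission yeast branch site, are present on the gene's strand in 44.8% of 5307 introns of at least 20 bases and in none of these 4.

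SPBPB2B2.18 is shown beside it because it has the opposite pattern in wild type, with reads across the junction and none in the intron. Across its intron 2, 37 and 34 reads joined the exons in wild type against 0 and 2 in the mutant, and the intron held 0 reads in all libraries. In this intron the letters CTAAC occur.
SPBPB2B2.18 intron 2: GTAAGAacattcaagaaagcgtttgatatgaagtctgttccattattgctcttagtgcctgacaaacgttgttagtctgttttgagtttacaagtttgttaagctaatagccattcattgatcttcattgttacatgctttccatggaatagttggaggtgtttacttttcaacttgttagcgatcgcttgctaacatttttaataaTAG

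Across its intron 1 the junction reads were 4 and 10 in wild type and 0 in both mutant libraries. The junction reads of both introns add up to the 41, 44, 0 and 2 reads of the row itself, so they are the same reads and not a second measure. Retention could not be tested for this gene. In SPAC977.18 on chromosome I the junction reads were also fewer, from 178 and 200 to 23 and 24 at one intron and from 42 and 81 to 4 and 8 at another.

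Genes known to act on subtelomeric silencing lie elsewhere in the genome and were read from lists, whose counts stand beside 39.6% higher and 38.5% lower over all tested rows. Of 9 shelterin and telomere-capping genes, 4 rose, 4 fell and 1 did not pass; the median log2 change was -0.03. The capping genes ten1 and stn1 rose by 0.59 and 0.32, and poz1 and rif1 fell by 0.23 and 0.15 on the log2 scale. Of 15 heterochromatin genes, 6 rose, 2 fell and 7 did not pass; the median was 0.08. Among them the deacetylase gene sir2 rose by 0.59 and the histone methyltransferase gene clr4 by 0.39, while raf2, of the same methyltransferase complex, fell by 0.31 and swi6 by 0.20. Of 8 RNA interference genes, 6 rose, 1 fell and 1 did not pass, with arb1 and rdp1 both at 0.35, ago1 at -0.22 and a median of 0.11. Of 4 telomerase genes listed, lar7 was matched to no row, trt1 rose by 0.16, pof8 fell by 0.25 and 1 did not pass. Of 9 other regulators, 4 rose, among them bdf2 (0.44) and sgo2 (0.38), and 5 fell, among them lem2 (-0.28) and set2 (-0.23). All of these calls are from the fit over all rows with edgeR, and no list had a member that changed 2-fold.

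Of the 64 rows at the ends of chromosome II, 26 were listed at 0 in all libraries. Of 70 coding rows at the ends of chromosome I, 14 were at 0 in all libraries and 35 were tested, 14 higher and 16 lower, with a median log2 change of -0.11. Of 64 at the ends of chromosome III, none was at 0 and 62 were tested, 35 higher and 25 lower, with a median of 0.15. Rows with under 50% unique windows numbered 32 of 64 on chromosome II, 31 of 70 on chromosome I and 2 of 64 on chromosome III. Calls of at least 2-fold were made by 14 of the 35 tested rows of chromosome I (40.0%) and by 7 of the 62 of chromosome III (11.3%). On chromosome II they were made by 8 of 33 (24.2%). Those 8 include the rows named above that passed the filter through a single strain, whose calls are descriptions without a test. A limit of at least 10 reads in every library was set after seeing the data. The calls were then 10 of 31 (32.3%) on chromosome I and 6 of 61 (9.8%) on chromosome III. On chromosome II they were 5 of 28 (17.9%). These differences between chromosomes were not tested. Elsewhere on chromosome II, 1796 of 1811 coding rows were tested, 615 higher and 793 lower, with a median of -0.03.

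At the 100 kb border of the right end, ecl3 lies just inside, 98.2 kb from the end, with 162 and 166 reads in wild type and a log2 change of 0.71. Just outside lies SPBC8E4.03, at 103.9 kb, with 5491 and 5675 reads in wild type against 8856 and 10386 in the mutant and a log2 change of 0.79. At the left end SPBPB10D8.06c (97.2 kb) just inside and SPBPB10D8.07c (99.9 kb) just outside were both at 0 in all libraries. Both belong to a group of near-identical transporter genes with SPBPB10D8.04c and SPBPB10D8.05c. In SPBPB10D8.05c, SPBPB10D8.06c and SPBPB10D8.07c 0% of the windows are unique. SPBPB10D8.04c has 18.1% unique windows and had 84 and 108 reads in wild type against 93 and 82 in the mutant. The next row outside at the left end, SPBC359.01, had 1069 and 1114 reads against 1638 and 1988, a log2 change of 0.74.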

How the data were processed

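Poly-A RNA was sequenced in 2 wild-type and 2 cwf10-ΔNTE libraries and only first reads were used, per the labels. The deposited table gives raw read counts by the authors per gene, intron and intergenic row, the row length, exon-intron boundary counts, a log2 splicing efficiency, and the authors' DESeq log2 fold change with its adjusted p-value. Per the submitters' processing notes, the tools were CASAVA 1.8.2 and Bowtie 0.12.7. For their roles, the genome build and multiply matching reads, the sources used here give nothing. Reads joining exons were recovered from the deposited log2 efficiency, and 21444 of 21444 values came out whole within 0.001. Coordinates fit ASM294v3: 5287 of 5361 introns (98.6%) begin with GT and end with AG there. Names matched 6867 of 7022 gene identifiers and 64 of 64 members.

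Gene rows were tested with edgeR 4.0.16 (quasi-likelihood, filterByExpr, TMM, Benjamini-Hochberg, threshold 0.05, R 4.3.3), with the host's reads as offset for introns (at least 10 intron reads summed over the libraries, and at least 50 host reads in every library). Errors are SD of TMM-scaled CPM or SE of log2 changes. Copies were sought with BLAST 2.17.0. The biological coefficient of variation was 1.49%. On simulated data, the fit over 6536 rows recovered 100% of 200 rows changed 2-fold and 96% of those changed 1.5-fold, and the intron fit 48.5% of 200 introns changed 2-fold among 5038. DESeq2 1.42.0, library totals, no filter, a replicate block, each library left out, and narrower sets of members were tried. Named genes are, at each end, up to 8 members with the highest and up to 6 with the lowest called changes at a mean of at least 5 CPM, the 3 most abundant per kb and the 3 nearest the end with at least 10 reads in every library, the galactose cluster, tlh2 and grt1. Other named members were chosen after their values were seen, including the pair SPBC1348.11 and SPBPB2B2.18. The members and gene lists were chosen with earlier results of these data known. Intervals cover counting error only.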

Additional observations from a re-analysis of the deposited data

How the results depend on the processing

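With library totals as the only scaling, all gene rows shift up by 0.09 on the log2 scale and the calls over all rows become 3248 higher and 1879 lower, in place of 2585 and 2519. The median log2 change of the tested members, 0.2341, was 0.3139 with library totals, 0.3067 with no filter, 0.2004 to 0.384 with 1 library left out, 0.1943 within 50 kb of an end, 0.3263 in rows that overlap no other row, 0.3819 in rows with no near-identical copy and 0.4002 in rows with at least 50% unique windows, a set chosen after seeing the data. Smaller sets held fewer calls by construction. Within 50 kb of an end, 4 members were higher and 2 lower (2 and 1 at each end). Among rows that overlap no other row, 10 were higher and 3 lower, with 5 higher and 1 lower at the right end and 2 lower at the left. Of the 8 members called with at least 2-fold changes, 5 had at least 10 reads in every library. Leaving out 1 library gave 16 to 18 higher and 9 lower members. SPBPB10D8.01 passed with library totals (edgeR adjusted p = 0.00523) and without the first wild-type library (0.0438). With gene library sizes and TMM factors in place of the host offset, 1 member intron fell.

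The difference in the share of gene reads, mutant minus wild type, was -0.0004 percentage points at the left end, -0.006282 without the most abundant member, 0.000592 without near-identical copies and, added after seeing the data, 0.004523 without the member most abundant in wild type. In the same order it was 0.01069, 0.005335, 0.006953 and 0.01307 at the right end, and 0.01029, -0.000946, 0.007545 and 0.0176 over both ends. The ratio of left to right reads differed by -0.3491, -0.491, -0.2151 and -0.2732. Replicate numbers did not pair the samples (correlation of same-numbered deviations 0.0015), and a replicate block gave 5127 calls overall and 26 members, against 5104 and 26 without it. With 2 libraries per strain and reads of copied or overlapping rows not separable, rows with few reads are limited by depth.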
